A study of Mus musculus with 6 samples.

Results

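Potassium channel subunits were followed in whole soleus, the slow-twitch muscle of the calf, through every gene whose symbol begins with Kcn, continues in letters and ends in a number. The deposited value table held 88 such genes among 30145 genes with a feature of their own, each measured by 1 feature. Of the 88, 40 passed a filter that asked for a value above the median of the same array on at least 3 arrays, and they are named below. That is 45.5% of the channel genes, against 60.8% of all genes. The muscles came from male mice of 39 to 41 weeks, 3 wild type Controls and 3 cKO mice carrying a DMP1 Cre Mbtps1 knockout. In the cKO mice Mbtps1, the gene of site-1 protease, was deleted by a Cre recombinase under regulatory sequence of Dmp1, a gene of osteocytes, so the intended site of deletion was not the muscle fibre. The series title calls the Controls littermates of the cKO mice. Each mouse gave 1 array from flash-frozen muscle, and having only 3 arrays a group limits how precise the values are.

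Potassium channels are membrane pores that let potassium leave or enter a cell and so set its resting voltage and end its action potentials. Voltage-gated channels open on depolarisation, inward rectifiers hold the resting voltage, 2-pore-domain channels carry a background leak, and calcium-activated channels link the calcium signal back to the membrane. In skeletal muscle, inward rectifiers of the Kcnj2 type stabilise the fibre membrane and the transverse tubules, and channels made of Kcnj11 with a sulfonylurea receptor open when ATP is short. Whole muscle also holds vessels, nerve and connective tissue with channels of their own. In whole tissue, fewer cells of a type and less RNA per cell cannot be told apart.

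The 6 arrays correlated between 0.970 and 0.995 over the features tested. The median log2 signal of an array was 4.3703 for cKO 1 and lay between 4.0045 and 4.1316 for the other 5, so cKO 1 stood apart. The mice carried numbers in 2 ranges, 715, 716 and 733 (Control 1, Control 2 and cKO 1) and 776, 779 and 780 (Control 3, cKO 2 and cKO 3), and the labels do not say what a range marks. All 10 slow fibre markers and all 11 fast fibre markers on the lists were above the filter, with mean log2 signals of 15.2 to 15.5 for the slow list and 15.3 to 17.4 for the fast list over the 6 arrays. Mbtps1 was at 7.39, 7.05 and 7.24 in Control and 7.77, 7.44 and 7.11 in cKO. The sources used here do not say which exons its feature covers, and Dmp1 was below the array median on all 6 arrays, so neither gene checks the labels.

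No channel subunit was called different between cKO and Control soleus. By limma, 0 of the 40 members above the filter passed an adjusted p of 0.05, against 0.0% of the 33334 features tested, and the adjusted p of each member was 0.999. At an unadjusted p under 0.05 the count was 0 of 40 as well, against 4.5% of features. The differences (cKO minus Control, log2 units) ran from -0.30 for Kcnj11 to 0.53 for Kcnn3, with a median of 0.02, and the median over all features tested was 0.07. As deposited, 22 members were higher and 18 lower in cKO, against 65.8% of all features higher. After quantile normalization 14 were higher with a median of -0.06, and after centring each array on its median 18 were higher with a median of -0.03, while the median over all features became -0.0038 and 0.02. The 95% interval of the difference stayed within 1 log2 unit either way for 36 of the 40 members and within 0.5 for 22. The 4 members whose interval reached beyond 1 log2 unit were Kcnj2, Kcnj3, Kcnn3 and Kcnc4.

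**Figure D1:**
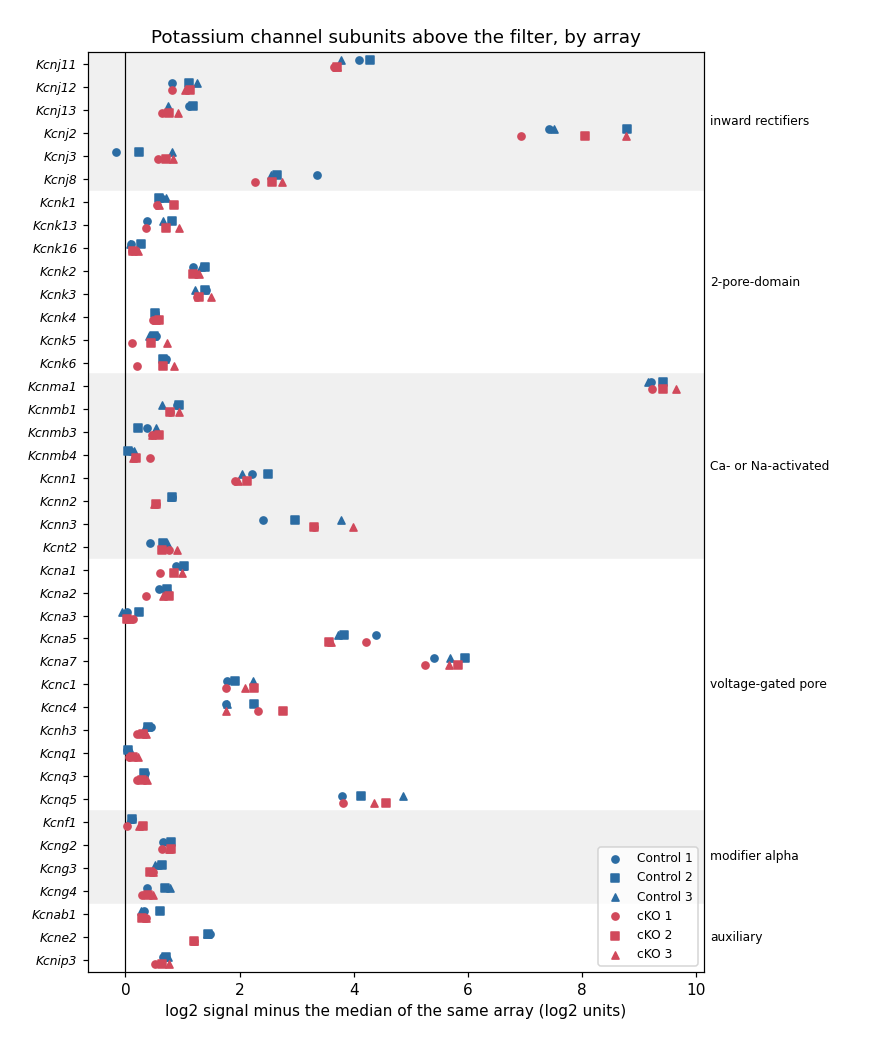
Log2 signal minus the median of the same array (x axis, log2 units) for the 40 potassium channel subunits above the filter, grouped by role, with 1 point per array and blue for Control, red for cKO. For most members the blue and red points overlap, and the spread along the axis is widest for Kcnj2 and Kcnn3.

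**Figure D2:**
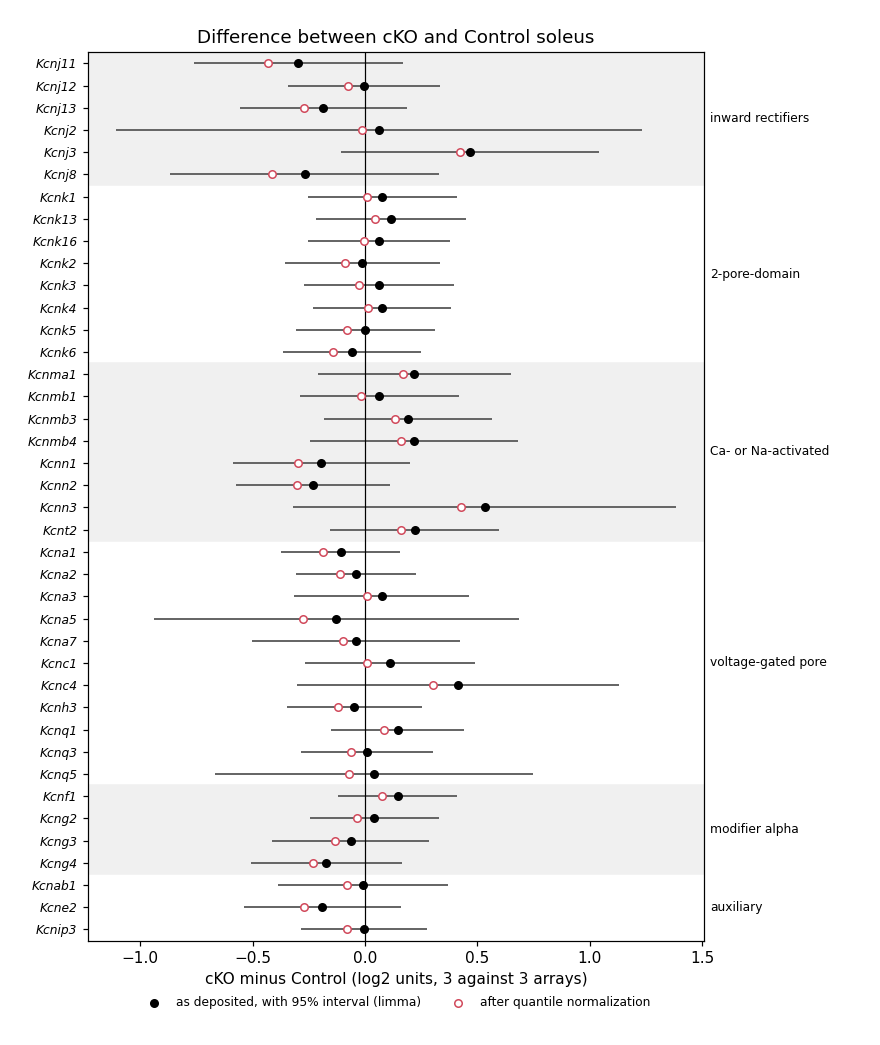
Difference between 3 cKO and 3 Control arrays (x axis, log2 units) for the same 40 members, with black points and 95% limma intervals for the values as deposited and open red points after quantile normalization. Every interval includes 0, and the interval of Kcnj2 is the widest of the 40.

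Leaving out 1 array brought at most 2 of the 40 members to an unadjusted p under 0.05, and shares over all features in the same fits follow each count. Without Control 3 these were Kcnj3 (difference 0.73) and Kcnn3 (0.89), against 9.43% of features. Without cKO 1 they were Kcnn2 (-0.35) and Kcne2 (-0.31), against 6.18%, and without cKO 3 the 1 member was Kcnc4 (0.74), against 2.89%. None of these passed the adjusted threshold in limma.

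Inward rectifiers were measured by 15 genes, of which 6 passed the filter. Kcnj2, the main strong inward rectifier of muscle, had log2 signals of 11.55, 12.82 and 11.59 in Control and 11.29, 12.09 and 12.77 in cKO, each in the order of replicates 1, 2 and 3 that is kept throughout. Control 2 and cKO 3 were high and cKO 1 was low, so the groups overlapped over nearly their whole range. Its difference was 0.06 log2 units (SE 0.49, 95% interval -1.11 to 1.23), with -0.89 among the lower and 0.84 among the higher mouse numbers. Kcnj12, a strong inward rectifier that can assemble with the product of Kcnj2, was far steadier, at 4.94, 5.13 and 5.33 in Control and 5.19, 5.16 and 5.05 in cKO. Its range over the arrays was 0.39 log2 units, against 1.52 for Kcnj2, and its difference was -0.0024 (SE 0.14).

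Kcnj11 and Kcnj8 encode the pore subunits of ATP-sensitive channels, of fibres and, for Kcnj8, above all of vessel wall cells. Kcnj11 was at 8.22, 8.31 and 7.85 in Control and at 8.03, 7.74 and 7.72 in cKO. Control 1 and Control 2 were the highest arrays, while Control 3 lay below cKO 1, so the groups overlapped. The difference was -0.30 log2 units (SE 0.19, 95% interval -0.76 to 0.17), or 0.814 times the Control level, and it was negative in both ranges of mouse numbers, at -0.23 and -0.12. It was -0.43 after quantile normalization and -0.36 after centring, where the cKO arrays lay wholly below the Control arrays. Kcnj8 was at 7.48, 6.69 and 6.62 in Control and at 6.64, 6.59 and 6.75 in cKO. Control 1 alone stood high, and the other 5 arrays lay within 0.16 log2 units of each other. The difference of -0.27 (SE 0.25) was -0.45 among the lower mouse numbers, which include Control 1, and 0.05 among the higher ones.

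The sulfonylurea receptor genes Abcc9 and Abcc8 lie next to Kcnj8 and Kcnj11, respectively, in the RefSeq gene table. Abcc9, whose product completes the channel in muscle and vessel wall, was at 14.1, 14.2 and 14.4 in Control and 14.1, 14.9 and 14.9 in cKO, a difference of 0.37 (SE 0.26, limma adjusted p = 0.999). Abcc8, whose product does so in the pancreatic beta cell, was at 4.34 to 4.63 over the 6 arrays and differed by 0.04 (SE 0.13). The endothelial list had 11 of 12 genes above the filter, and the other, Egfl7, was not analysed here. Its mean was highest on the same array as Kcnj8, but Esam was highest on cKO 1, Sox18 on cKO 3 and Emcn on Control 2. The means of this list were 9.77, 9.24 and 8.57 in Control against 9.03, 9.01 and 9.18 in cKO. The smooth muscle and pericyte list, with 14 of 14 genes above the filter, was at 9.26 to 9.43 in Control and 9.57 to 9.75 in cKO, and it includes Abcc9 and Des, which muscle fibres also express. In this list 13 genes were higher in cKO and 1, Rgs5 (-0.56), was lower. The part of these cell types in the values of Kcnj8 was not tested.

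Kcnj3, a subunit of the channels that G proteins open in heart and brain, had the smallest unadjusted p of the members (0.0937). It was at 3.97, 4.27 and 4.89 in Control and 4.95, 4.75 and 4.84 in cKO. Control 1 lay below its array median and Control 2 above it, while Control 3 lay inside the range of the cKO arrays, so the groups overlapped. The difference was 0.47 log2 units (SE 0.24, 95% interval -0.10 to 1.04), with 0.83 among the lower and -0.10 among the higher mouse numbers. Its usual partners Kcnj5, Kcnj6 and Kcnj9 were below the median on all 6 arrays. Kcnj13, a weak inward rectifier of transporting epithelia, ran from 4.79 to 5.24 and differed by -0.18 (SE 0.16). The other members of the family below the filter were Kcnj1, Kcnj4, Kcnj10, Kcnj14, Kcnj15 and Kcnj16, and the 9 genes below the filter together ran from 2.88 to 4.34.

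Calcium- and sodium-activated channels and related channels were measured by 12 genes, and 8 passed the filter. Of these, 6 were higher and 2 lower in cKO as deposited, beside 65.8% of all features higher. Their median difference was 0.20 log2 units, and 0.15 after quantile normalization, where 5 were higher. As deposited the median was 0.33 among the lower mouse numbers and -0.05 among the higher ones. Kcnma1 encodes the pore of the large-conductance channel that calcium and voltage open together. It was at 13.34, 13.44 and 13.23 in Control and at 13.59, 13.44 and 13.65 in cKO. The highest Control array and the lowest cKO array were level, so the groups met without separating. The difference was 0.22 log2 units (SE 0.18, 95% interval -0.21 to 0.65), and 0.20 and 0.31 among the lower and high mouse numbers.

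The accessory subunits of this channel showed smaller or less even differences. Kcnmb1, the beta subunit known from smooth muscle, was at 5.04, 4.95 and 4.72 in Control and 5.14, 4.82 and 4.94 in cKO, a difference of 0.06 (SE 0.15). Kcnmb3 was at 4.50, 4.24 and 4.60 in Control and at 4.84, 4.61 and 4.48 in cKO, and differed by 0.19 (SE 0.16). Kcnmb4, the beta subunit known from brain, differed by 0.22 (SE 0.19), with cKO 1 at 4.79 and the other 5 arrays at 4.07 to 4.23. In both Kcnmb3 and Kcnmb4 the value rested on the low mouse numbers, at 0.46 and 0.66, against -0.06 and -0.05 among the higher numbers. Kcnmb2 was below the filter, with Kcnn4, Kcnt1 and Kcnu1, and these 4 genes ran from 3.60 to 4.15.

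Small-conductance channels, which calcium opens through calmodulin, were represented by Kcnn1, Kcnn2 and Kcnn3. Kcnn3, known from developing and denervated muscle, had the largest difference of the 40 members. It was at 6.55, 6.997 and 7.85 in Control and at 7.67, 7.34 and 7.99 in cKO. Control 1 and Control 2 were the lowest arrays and cKO 3 the highest, but Control 3 lay above cKO 1 and cKO 2. The difference was 0.53 log2 units (SE 0.36, 95% interval -0.32 to 1.38), a fold of 1.45, and it was 0.90 among the lower mouse numbers and -0.19 among the higher ones.

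Marker lists were set beside Kcnn3. The neuromuscular junction and denervation list had 16 of 17 genes above the filter (Chrng was not), with means of 6.87, 6.93 and 7.19 in Control and 7.32, 7.39 and 7.59 in cKO. These means kept the genotypes apart, which the values of Kcnn3 did not. In this junction list 13 genes were higher in cKO and 3 lower, Colq (-0.22), Ache (-0.04) and Chrne (-0.0040). The fibroblast list had 10 of 11 genes above the filter (Pdgfra was not analysed here), with means of 8.81, 9.15 and 9.60 in Control and 9.55, 9.08 and 10.04 in cKO. As for Kcnn3, Control 1 was the lowest and cKO 3 the highest array for the mean of the fibroblast list, and Control 3 lay above cKO 1 and cKO 2. The single genes of the list did not share this order. Col1a1 and Postn were lowest on Control 2, and Dcn and Lum on cKO 2. In the list 8 genes were higher in cKO and 2 lower, Dcn (-0.23) and Lum (-0.87). Tendon markers, 10 of 12 above the filter without Mkx and Cilp2, had means of 5.98 to 6.79 in Control and 7.29 to 7.66 in cKO. The part of these cells in the values of Kcnn3 was not tested.

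Kcnn2 was at 4.95, 4.83 and 4.88 in Control and at 4.90, 4.57 and 4.50 in cKO. Only cKO 1 reached the Control values as deposited, and the difference was -0.23 log2 units (SE 0.14, 95% interval -0.58 to 0.11). After quantile normalization it was -0.30, with an unadjusted p of 0.0179 and all cKO arrays below all Control arrays, and the limma adjusted p was 0.990. Within the low mouse numbers the deposited difference was 0.0067, and among the higher numbers it was -0.34. Kcnn1 differed by -0.19 (SE 0.17) over a range of 5.98 to 6.53. Kcnt2, a sodium-activated channel, was at 4.57, 4.68 and 4.81 in Control and at 5.14, 4.68 and 4.91 in cKO, and differed by 0.22 (SE 0.16).

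Pore-forming voltage-gated subunits made up 26 of the 88 genes, and 11 passed the filter. As deposited 6 of them were higher and 5 lower in cKO (4 higher after quantile normalization), beside 65.8% of all features higher. Kcna7, a delayed rectifier known from skeletal muscle and heart, was at 9.53, 9.97 and 9.77 in Control and at 9.61, 9.86 and 9.68 in cKO. All 3 cKO values lay inside the Control range, with a difference of -0.04 log2 units (SE 0.19, 95% interval -0.50 to 0.43). Kcnq5, an M-type channel found in skeletal muscle and brain, was at 7.92, 8.14 and 8.94 in Control and at 8.17, 8.59 and 8.36 in cKO. Control 1 was the lowest and Control 3 the highest array, so the cKO values again lay inside the Control range, and the difference was 0.04 (SE 0.30). Kcnq3, which can assemble with the product of Kcnq5, differed by 0.0093 (SE 0.12).

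Kcnc4, a fast voltage-gated channel of muscle and nerve, was at 5.88, 6.28 and 5.86 in Control and at 6.69, 6.80 and 5.77 in cKO. The cKO arrays held both the highest values and the lowest, since cKO 3 lay below every Control array. The difference of 0.41 log2 units (SE 0.30, 95% interval -0.30 to 1.13) was 0.61 among the lower and 0.43 among the higher mouse numbers. The fast fibre list, whose mean was highest on the same array, was at 15.3, 16.2 and 16.2 in Control and at 16.1, 17.4 and 15.5 in cKO. Myh4, Actn3, Pvalb and Mybpc2 stood high on cKO 2, at 16.9, 15.7, 11.9 and 13.8, and the other genes of the list moved less. Mylpf and Tnni2 were highest on Control 2 and Myl1 on cKO 3. On cKO 1, where Kcnc4 was also high, the list mean lay below Control 2 and Control 3. The part of the fast fibre list in Kcnc4 was not tested. Kcnc1, of the same subfamily, was at 5.92, 5.95 and 6.31 in Control and at 6.13, 6.28 and 6.10 in cKO, a difference of 0.11 (SE 0.16). Kcne3, which can act as an accessory subunit of Kcnc4 channels in muscle, was below the array median on all 6 arrays, at 4.01, 3.93 and 3.54 in Control and 3.94, 3.62 and 3.66 in cKO.

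Kcna5, a delayed rectifier of heart, vessel wall and muscle, was at 8.52, 7.85 and 7.79 in Control and at 8.58, 7.60 and 7.60 in cKO. One array of each genotype, Control 1 and cKO 1, stood high, and both came from the low mouse numbers. The difference between genotypes was -0.13 log2 units (SE 0.34), at 0.39 and -0.19 among the lower and high numbers. Its neighbour Kcna1, an axonal channel, had values of 5.02, 5.06 and 5.08 in Control and 4.97, 4.88 and 4.99 in cKO. Here all 3 cKO arrays lay below all 3 Control arrays, with a difference of -0.11 (SE 0.11, 95% interval -0.37 to 0.16). Kcna2, which pairs with Kcna1 in axons, was at 4.72, 4.75 and 4.82 in Control and at 4.73, 4.79 and 4.66 in cKO, a difference of -0.04 (SE 0.11). The Schwann cell and nerve list, with 7 of 12 genes above the filter, Mag and Gldn below it and 3 not analysed here, had means of 5.66 to 5.85 in Control and 5.70 to 5.97 in cKO. Its part in the values of Kcna1 was not tested.

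Kcnq1, known from heart and inner ear, had cKO arrays above all Control arrays, at 4.44, 4.16 and 4.22 against 4.15, 4.07 and 4.16. The gap between the groups was under 0.01 log2 units, and the difference was 0.15 (SE 0.12). Kcna3, known from lymphocytes, was at 4.15, 4.25 and 4.01 in Control and at 4.51, 4.06 and 4.07 in cKO, with cKO 1 alone high and a difference of 0.08 (SE 0.16). Kcnh3, known from brain, differed by -0.05 (SE 0.13). The 15 voltage-gated genes below the filter ran from 2.89 to 4.32 and were Kcna4, Kcna6, Kcna10, Kcnb2, Kcnc2, Kcnd1, Kcnd2, Kcnd3, Kcnh1, Kcnh2, Kcnh4, Kcnh5, Kcnh6, Kcnh7 and Kcnh8. All 3 measured Kcnd genes, which carry the fast transient current of heart and nerve, and 7 of the 8 measured Kcnh genes were thus below it.

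Modifier subunits do not form channels alone but alter the gating of other voltage-gated subunits. Of 10 measured, 4 passed the filter. Kcnf1 was at 4.24, 4.15 and 4.16 in Control and at 4.39, 4.35 and 4.25 in cKO, where the cKO arrays lay above the Control arrays. Its difference was 0.15 log2 units (SE 0.11, 95% interval -0.12 to 0.41). Kcng2, Kcng3 and Kcng4 differed by 0.04 (SE 0.12), -0.06 (SE 0.15) and -0.17 (SE 0.14). Kcng1, Kcns1, Kcns2, Kcns3, Kcnv1 and Kcnv2 were below the filter, at 2.82 to 4.12.

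Auxiliary subunits were the role with the fewest genes above the filter, 3 of 11. Kcne2, a single-span subunit known to join several voltage-gated channels, was at 5.61, 5.47 and 5.50 in Control and at 5.57, 5.23 and 5.21 in cKO. As with Kcnn2, cKO 2 and cKO 3 lay below all Control arrays and cKO 1 did not, and the difference was -0.19 (SE 0.15). After quantile normalization the cKO arrays of Kcne2 lay wholly below the Control arrays, at a difference of -0.27. Kcnab1, a cytoplasmic beta subunit of Kcna channels, was at 4.45, 4.63 and 4.35 in Control and at 4.73, 4.32 and 4.36 in cKO, a difference of -0.0068 (SE 0.16). Kcnip3, a calcium-binding protein that joins Kcnd channels and also acts in the nucleus, differed by -0.0038 (SE 0.12). Kcnab2, Kcnab3, Kcne1, Kcne3, Kcne4, Kcnip1, Kcnip2 and Kcnip4 were below the filter. Among them Kcne4 was at 4.13, 4.89 and 3.88 in Control and at 4.13, 4.04 and 3.84 in cKO, so Control 2 stood apart. Kcnip2, which joins Kcnd channels in heart, was at 3.65, 3.59 and 3.46 in Control and 3.85, 3.52 and 3.57 in cKO.

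Of 14 genes for 2-pore-domain channels, 8 passed the filter. Their differences ran from -0.06 to 0.12 log2 units. As deposited 6 were higher and 2 lower in cKO, beside 65.8% of all features higher, and 3 were higher after quantile normalization. Kcnk2, a channel opened by membrane stretch, was at 5.32, 5.42 and 5.40 in Control and at 5.60, 5.22 and 5.29 in cKO, a difference of -0.01 (SE 0.14, 95% interval -0.36 to 0.33). Kcnk3, closed by acid outside the cell, was at 5.54, 5.43 and 5.30 in Control and at 5.63, 5.32 and 5.50 in cKO, a difference of 0.06 (SE 0.14). In both, cKO 1 was the highest array and the groups overlapped. Kcnk13 had the largest difference of the family, at 0.12 (SE 0.14), followed by Kcnk1 and Kcnk4 at 0.08 each (SE 0.14 and 0.13), Kcnk16 at 0.06 (SE 0.13), Kcnk6 at -0.06 (SE 0.13) and Kcnk5 at 0.0019 (SE 0.13). Below the filter were Kcnk7, Kcnk9, Kcnk10, Kcnk12, Kcnk15 and Kcnk18, at 2.84 to 4.20.

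Full separation of the groups was thus seen for 3 of the 40 members on the deposited scale. Kcnf1 and Kcnq1 lay above, against 8.95% of all features tested, and Kcna1 lay below, against 2.05%. Their differences did not exceed 0.15 log2 units in size, and the separation was lost for all 3 after quantile normalization and after centring. After quantile normalization 0 members lay above (4.99% of features) and 2 below (4.97%), Kcne2 and Kcnn2. After centring 0 lay above (5.15%) and 4 below (4.03%), which were Kcne2, Kcnn2, Kcnj11 and Kcng3.

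The array with the highest value was also counted. As deposited, cKO 1 was the array with the highest value for 56 of the 88 members, against 55.8% of all features used, and for 19 of the 40 above the filter, against 46.4% of features tested. After centring on array medians or quantile normalization it was the highest for 1 of the 40, against 15.1% of features tested after centring and 19.6% after quantile normalization. On these scales it was the highest for 4 of the 88, and the share over all features used was not counted there. The sign of the difference was the same in both ranges of mouse numbers for 13 of the 40 members. The median difference over the 40 was 0.15 for the lower numbers, where cKO 1 is the only cKO array, and -0.05 for the higher. Neither value was computed over all features, so they cannot be read as a trait of the channel genes.

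**Figure D3:**
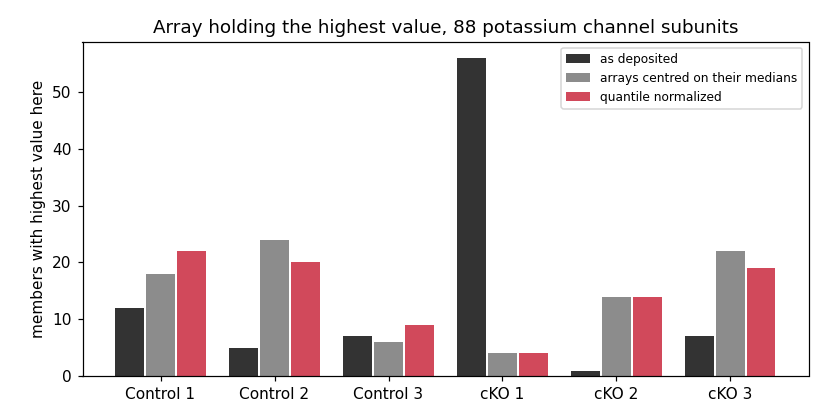
Number of the 88 potassium channel subunits (y axis) whose highest value fell on each of the 6 arrays, for the values as deposited (black), after centring each array on its median (grey) and after quantile normalization (red). The bar for cKO 1 stands at 56 as deposited and at 4 on both other scales.

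The members nearest the filter show how low most of the family lay. Just inside were Kcna3 at 4.01 to 4.51, Kcnq1 at 4.07 to 4.44 and Kcnf1 at 4.15 to 4.39, and just outside were Kcne4, Kcnj14 and Kcnj15. Kcnj14 was at 4.03, 4.05 and 4.07 in Control and at 4.33, 3.98 and 4.05 in cKO. Kcnj15 was at 3.97, 3.99 and 3.96 in Control and at 4.34, 3.93 and 3.9997 in cKO, and in both genes cKO 1 was the highest array. In all, 38 genes were above the median on all 6 arrays, 44 on none and 6 on some, and 25 of the 40 above the filter lay on average less than 1 log2 unit above it. Members below the filter were not tested, and when the filter was dropped 0 of the 88 reached an unadjusted p under 0.05 in limma. Among 10 pairs of members that are neighbours in the RefSeq gene order, 4 differed in this respect. Kcnj2 (above) lies beside Kcnj16 (below the median on all 6 arrays), Kcnmb1 (above) beside Kcnip1 (below), and Kcna1 and Kcna2 (above) beside Kcna6 and Kcna10 (below), while Kcnk5 and Kcnk16, Kcna5 and Kcna1, and Kcna3 and Kcna2 both passed, and Kcnj9 and Kcnj10, Kcnj6 and Kcnj15, and Kcnj5 and Kcnj1 were both below.

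The widest ranges among the members did not follow genotype. The median range over the 6 arrays was 0.41 log2 units for the 40 members and 0.68 for all features tested, and only Kcnj2, Kcnn3, Kcnc4 and Kcnq5 spanned more than 1 log2 unit among the 40. In none of these 4 were the genotypes apart, and the arrays at the extremes differed from gene to gene. Control 2 and cKO 3 were high for Kcnj2, cKO 1 and cKO 2 for Kcnc4, and Control 3 was high for Kcnq5 and, with cKO 3, for Kcnn3.

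**Figure D4:**
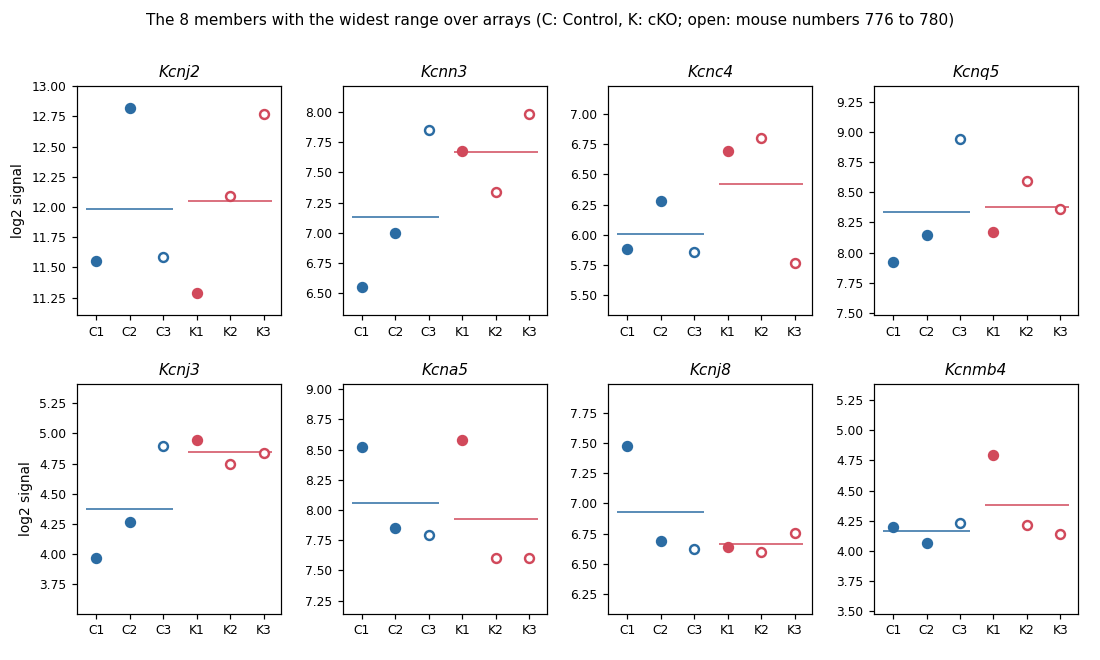
Log2 signal on each array (y axis, each panel spanning 1.9 log2 units) for the 8 members above the filter with the widest range, with lines at the group means, blue for Control (C1 to C3), red for cKO (K1 to K3), filled points for mouse numbers 715 to 733 and open points for 776 to 780. Kcna5 is high on C1 and K1, Kcnj8 on C1 alone and Kcnmb4 on K1 alone.

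Differences between the ranges of mouse numbers were fitted beside genotype. By limma 0 of the 40 members passed an adjusted p of 0.05 for high minus low numbers, against 0.0% of features, and 3 had an unadjusted p under 0.05, a share of the family below the 13.5% found over all features. These were Kcnq5 at 0.61 log2 units (SE 0.22, adjusted p = 0.339), Kcna5 at -0.68 (SE 0.26, adjusted p = 0.350) and Kcna3 at -0.32 (SE 0.12, adjusted p = 0.354). The count was 0 without Control 1 (13.9% of features) or without cKO 2 (8.14%), and 1 without Control 2 (14.2%) or without cKO 3 (8.85%). It rose in at least 1 of the fits without Control 3 and without cKO 1, where the share of features was not counted. Kcnj11, Kcnab1 and Kcnmb1 followed, at -0.36 (SE 0.16), -0.29 (SE 0.13) and -0.27 (SE 0.12). Of the 40 members, 13 were higher in the high numbers as deposited, against 35.0% of features, and 22 were after quantile normalization and 25 after centring. The share of features was not counted on those other scales. The median of high minus low over all features was -0.10 as deposited and -0.03 after quantile normalization. Kcnq5 and Kcna5 kept their sign after quantile normalization and centring, at 0.55 and 0.78 for Kcnq5 and -0.74 and -0.51 for Kcna5. Kcna3, whose highest value was on cKO 1, was at -0.14 on both of these scales.

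Partners of the channels and other genes of membrane excitability gave a list of 45, of which 34 had a feature of their own and 28 were above the filter. By limma 0 of the 28 passed the adjusted threshold and 6 had an unadjusted p under 0.05, where the share over all features was 4.5%. In all, 19 were higher and 9 lower in cKO (16 higher after quantile normalization), beside 65.8% of all features higher, with a median difference of 0.17 log2 units against 0.07 over all features. Of the 6, 5 were higher and 1, Lrrc38, was lower. The largest difference was that of Cacng1, which encodes the gamma subunit of the calcium channel of the transverse tubules, at 11.4, 11.7 and 13.5 in Control and 14.0, 13.9 and 13.9 in cKO (1.74, SE 0.54). Control 3 lay closest to the cKO arrays, and the groups were apart on all 3 scales. Cacnb1 and Cacna1s, the beta and pore subunits of the same channel, differed by 0.68 (SE 0.24) and 0.55 (SE 0.22). Slc12a4, a potassium and chloride cotransporter, differed by 0.71 (SE 0.23), and Atp1b4, a muscle protein related to sodium pump beta subunits, by 0.98 (SE 0.39), each of these 5 with a limma adjusted p of 0.999. Lrrc52 and Lrrc38 encode leucine-rich subunits that shift the gating of the Kcnma1 channel. Lrrc38 was at 5.78, 5.83 and 5.91 in Control and at 5.54, 5.34 and 5.04 in cKO, with the groups apart and a difference of -0.53 (SE 0.16, adjusted p = 0.999). Lrrc52 was at 12.9, 14.0 and 10.4 in Control and at 10.5, 12.8 and 13.6 in cKO. Control 3 and cKO 1 were low, so its spread of 3.60 log2 units did not follow genotype, and its difference was -0.13 (SE 1.11). Amigo1, a cell adhesion protein of nerve that joins voltage-gated channels, was at 5.71, 6.08 and 6.32 in Control and at 6.56, 6.32 and 6.41 in cKO, a difference of 0.39 (SE 0.19).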

How the data were processed

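Soleus RNA of 3 Control and 3 cKO mice was hybridised to Affymetrix whole-transcript arrays after biotin labelling of cDNA from 100 ng, per the labels' protocols. The deposited table holds 1 column per array, read as log2 signals because its values run from 1.92 to 19.93. Log base, background correction, summarisation, normalization and software are not given in the sources used here. Of 72688 features, 6732 hold no value, and 65956 were used. Symbols came from the platform annotation, where a feature counted as having 1 symbol if all entries were the same (30604 features), and all 88 members matched RefSeq (GRCm38.p6) by Entrez identifier and symbol. No coordinates are given, since no build is named for the table.

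Features above the median of their array on at least 3 arrays (33334) went into one linear model run in R 4.3.3 with limma 3.58.1 (eBayes with intensity trend, two-sided tests, no block), and adjusted p-values follow Benjamini and Hochberg across all of these features. SEs and 95% intervals are limma's. High minus low mouse numbers was fitted with genotype in the model. The fit was also run on simulated arrays with independent noise and no shift of a whole array, and no result above rests on that run. Plots were drawn with matplotlib 3.10.9 under Python 3.11.15, from tables made with pandas 2.3.3.

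The members, lists, tests and alternatives were chosen with earlier results of these data known. All members above the filter are named. Values on every array are given for those with separated groups, the 10 smallest p for genotype, the 6 smallest for number range, a list of channels known from muscle, vessel or nerve, and those nearest the filter. Kcnmb4 and Kcng3 were singled out after their values were seen. The replicates are separate mice by their numbers. Alternatives were other scalings, filters, eBayes settings and weights, blocks, and each array left out.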

Additional observations from a re-analysis of the deposited data

How the results depend on the processing

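No alternative brought a channel subunit past an adjusted p of 0.05 or 0.10 for genotype or for number range. The lowest adjusted p for genotype over all alternatives was 0.289, for Kcnn2 with array weights. At an unadjusted p under 0.05 for genotype, the count of 0 became 1 with quantile normalization (Kcnn2), 1 with median centring (Kcnn2), 1 with quantile normalization and the number range together (Kcnn2), and 5 with array weights (Kcnn2, Kcne2, Kcnj11, Kcnj3 and Kcnj13), and 0 to 2 with 1 array left out. Members higher in cKO numbered 22 of 40 as deposited, 14 with quantile normalization, 14 when the number range was added to it, 54 of 88 with no filter and 6 of 11 with the filter at the 75th percentile. For number range, the count of 3 at an unadjusted p under 0.05 became 6 with no filter, 1 with array weights and 0 to 4 with 1 array left out. The 13 members higher in the high numbers became 22 with quantile normalization, 25 with median centring, 5 of 11 with the 75th percentile, and 8 to 19 with 1 array left out. The causes were not tested, apart from the number of genes tested under the other filters. For rescaled values, array weights and other filters, shares of all features at an unadjusted p under 0.05 were not counted. The member counts for those settings thus cannot be set against all features. The sign of the genotype difference held under every alternative run for 16 of the 40 members (Kcna1, Kcnc4, Kcne2, Kcnf1, Kcng4, Kcnj3, Kcnj11, Kcnj13, Kcnma1, Kcnmb3, Kcnmb4, Kcnn1, Kcnn2, Kcnn3, Kcnq1 and Kcnt2), and turned under at least 1 for the other 24, in 8 of them under quantile normalization or centring. As each member has 1 feature, averaging features changed no member's value. With the replicate number as a block, 0 members passed and 0 had an unadjusted p under 0.05, and 22 were higher. The replicate numbers did not pair the arrays, since deviations of same-numbered arrays correlated at 0.128, -0.204 and 0.205. Between Control and cKO arrays of the same mouse number range the correlations ran from 0.128 to 0.3865, and across ranges from -0.405 to 0.084. The genotypes are spread unequally over the ranges, and the main fit leaves the range out. With the range as a factor the difference was 0.35 for Kcnn3, -0.18 for Kcnj11, -0.16 for Kcnq5 and 0.52 for Kcnc4. In that fit 0 members had an unadjusted p under 0.05. The 3 arrays a group and signals close to the array median limit what can be seen for most of the family.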
